A study of Mus musculus with 2 samples.

Results

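10 transcription factor genes were followed across the precursor clusters of cultured white and brown adipose cells. They were Meox1, Meox2, Nr2f1, Nr2f2, Shox2, Msx1, Msx2, Foxp2, Creb5 and Klf4, that is 10 of the 32285 genes listed, and all 10 were found in the files. They were chosen by their link with fibro-adipogenic progenitor-like cells (FAPLs) or with other precursor clusters in the study's own cluster profiles of these cells. Their levels across clusters are therefore a description, and no test was made on them. White subcutaneous and brown interscapular fat came from neonatal C57/BL6J pups of both sexes, aged P0 according to the labels. Stromal vascular cells of pooled pups were grown to confluency in 4 days and measured by single-cell RNA sequencing (10x Genomics, 3′ chemistry), with 1 library per depot. All cells had been cultured, neither library received a treatment, and a depot is known here from 1 library only, so depot and library cannot be told apart.

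The 10 genes belong to 7 families. Meox1 and Meox2 are homeobox factors of the early mesoderm and somites, and Meox2 also restrains the growth of vascular cells. Nr2f1 and Nr2f2 (COUP-TFI and COUP-TFII) are orphan nuclear receptors, and Nr2f2 is known for setting venous identity and for acting in mesenchymal and adipose precursors. Shox2, Msx1 and Msx2 are homeobox genes of limb, heart or craniofacial mesenchyme, Foxp2 is a forkhead repressor, Creb5 is a bZIP factor of the CREB/ATF group and Klf4 is a Krüppel-like zinc finger factor. Fibro-adipogenic progenitors are PDGFRα-positive stromal cells, first described in muscle, that can give rise to fibroblasts or adipocytes. Committed adipocyte precursors (CAPs) are the cells closest to adipocytes, marked by Pparg, the master factor of adipogenesis, and its target Fabp4.

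White cells had a median of 26239 unique molecular identifiers (UMIs, 1 per captured RNA molecule) and brown cells 26411. The study labelled all its precursor cells, and the copy of its labels used here was shortened to the first 1999 precursor cells of each depot. They comprised 256 wFAPLs, 15 differentiating wFAPLs, 674 wCAPs and 462, 260, 270 and 62 cells of wAPC 1 to 4, and 279 bFAPLs, 296 bCAPs and 581, 415, 171, 142 and 115 cells of bAPC 1 to 5, where APC stands for the less committed adipocyte precursors. Median UMIs per cell lay between 23338.5 and 31156 over these clusters. The libraries shared 9 cell barcodes, 3 of them among labelled cells. Levels are CPM, the UMIs of a gene summed over the cells of a cluster and scaled to an equal total in each cluster, with exact 95% Poisson intervals that cover counting error only. They compare clusters within a gene and not 1 gene with another.

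The FAPL label was set beside its markers. The study named wFAPLs by Serpinb1a, Cryab and the chemokine gene Cxcl14, among others. It named bFAPLs by Serpinb1a, Cryab and low Pparg and Fabp4. The levels of these genes therefore describe the label and do not test it. Serpinb1a, a protease inhibitor, stood at 76.3 CPM in wFAPLs against at most 8.41 in the other white clusters of 50 cells or more, and at 94.5 CPM in bFAPLs against at most 15.8 in the other brown clusters. Cryab, a small heat shock protein, stood at 333 and 445 CPM in wFAPLs and bFAPLs. The other clusters of 50 cells or more reached at most 102 CPM in white and 113 CPM in brown. Cryab was higher still in glial cells (1516 CPM in white and 1229 CPM in brown) and in myogenic cells (1563 CPM in brown). Pparg stood at 9.48 CPM in wFAPLs and 17.0 CPM in bFAPLs against 92.5 CPM in wCAPs and 92.8 CPM in bCAPs. Cebpa did not follow it, with 35.4 CPM in wFAPLs and 34.7 CPM in wCAPs, and 54.8 CPM in bFAPLs and 61.2 CPM in bCAPs. Fabp4 was not lowest in FAPLs. It stood at 37.2 CPM in wFAPLs, between 11.0 CPM in wAPC 2 and 85.9 CPM in wCAPs. In bFAPLs it stood at 91.4 CPM, between 24.8 CPM in bAPC 5 and 302 CPM in bCAPs, and bAPC 1 had 83.3 CPM. The summed CAP list (Pparg, Fabp4, Lpl and Cebpa) was 269 CPM in wFAPLs, below the 402 to 802 CPM of the other white clusters. In bFAPLs it was 449 CPM, within the 163 to 1066 CPM of the other brown clusters. A list of 10 mural genes (pericytes and smooth muscle) moved with the label as a sum, though not in every gene. Its summed level was 673 CPM in wFAPLs against 96.4 to 221 CPM in the other white clusters, and 799 CPM in bFAPLs against 202 to 369 CPM in the other brown clusters. Actg2, a smooth muscle actin, gave 370 and 519 CPM of these sums. Rgs5, a pericyte marker, had 28.3 CPM in wFAPLs and 76.8 CPM in bFAPLs. In the other clusters of 50 cells or more it reached at most 4.71 CPM in white and 8.53 CPM in brown. Kcnj8 (31.0 and 17.1 CPM) and Abcc9 (60.2 and 34.5 CPM) also led these clusters in both depots. The pericyte gene Higd1b was at 0 in wFAPLs and had 1 UMI in bFAPLs, and no other such cluster had over 1 UMI of it. Cspg4, Notch3 and Mcam were higher in wAPC 4 (46.0, 46.0 and 20.0 CPM) than in wFAPLs (20.6, 35.1 and 17.7 CPM). In brown, Cspg4 stood at 34.4 CPM in bFAPLs and 34.1 CPM in bAPC 5. The 15 differentiating wFAPLs had 6739 CPM of the mural list, 2522 CPM of Myh11, the smooth muscle myosin, and 1006 CPM of Fabp4. Of the FAPL markers, Serpinb1a (2.10 CPM) and the chemokine gene Cxcl14 (0) were below their levels in wFAPLs (76.3 and 47.4 CPM). Cryab (1537 CPM) and the collagen genes Col4a1 (1833 CPM) and Col4a2 (944 CPM) were above theirs (333, 946 and 561 CPM). The differentiating wFAPLs thus matched their name only in part, and they enter no ranking below. The glial list stood at 30.7 CPM in wFAPLs (15.9 to 30.6 in the other white clusters, 937 in glial cells) and 24.8 CPM in bFAPLs (8.98 to 22.6 in the other brown clusters, 835 in glial cells). wFAPLs were thus level with wAPC 4, and bFAPLs stood just above bCAPs, mostly through S100b with 29.0 and 23.1 CPM. S100b did not set glial cells apart in white, with 21.1 CPM there, and had 39.8 CPM in brown glial cells. Sox10, the defining glial factor, was at 0 in wFAPLs and had 2 UMIs in bFAPLs. The myeloid list stood at 7.53 and 6.37 CPM against 1645 and 1549 CPM in myeloid cells.

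3 members were at least 2-fold higher in FAPLs than in the other labelled precursor cells of the same library, and they were the same genes in both depots: Meox2, Nr2f2 and Msx1. In the white library these were 3 of the 9 members with 20 or more UMIs, where 3.81% of 15037 genes were as much higher, and no member was 2-fold lower, where 5.48% of genes were. In the brown library they were 3 of 10 members, where 3.38% of 14987 genes were as much higher, and 1 member, Msx2, was at least 2-fold lower, where 5.9% of genes were. The members were selected on these cells, so these shares carry no weight as evidence. The median log2 ratio of the members was 0.41 in white and 0.45 in brown, against -0.01 over all genes counted in each depot.

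The sequence before the start of each of these 3 genes is shown because they stood together in both depots. The 250 bases before the RefSeq start (GRCm38.p6, the same assembly as the authors' mm10) are given on the strand of the gene. Meox2 lies on chromosome 12 (37108540 to 37179534), Nr2f2 on chromosome 7 (70351946 to 70366746) and Msx1 on chromosome 5 (37820491 to 37824585). Capitals mark matches on either strand to 5 motifs. The promoter elements were searched as TATAAA for the TATA element, with the letters GGGCGG for the GC box, and with CCAAT for the box of that name. The binding motifs were searched as TAATTA for the core bound by homeodomains and as AGGTCA for the nuclear receptor half-site.
Meox2, chr12:37108290-37108539, plus strand: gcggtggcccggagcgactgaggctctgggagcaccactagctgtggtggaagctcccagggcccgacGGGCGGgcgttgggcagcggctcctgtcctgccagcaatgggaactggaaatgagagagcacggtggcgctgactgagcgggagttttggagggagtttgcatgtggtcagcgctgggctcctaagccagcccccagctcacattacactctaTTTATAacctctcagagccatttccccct
Nr2f2, chr7:70366747-70366996, minus strand: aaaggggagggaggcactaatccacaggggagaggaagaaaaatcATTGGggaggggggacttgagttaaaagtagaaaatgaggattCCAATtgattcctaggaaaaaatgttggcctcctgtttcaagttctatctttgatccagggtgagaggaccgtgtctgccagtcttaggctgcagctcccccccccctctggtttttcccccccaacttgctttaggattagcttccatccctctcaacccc
Msx1, chr5:37824586-37824835, minus strand: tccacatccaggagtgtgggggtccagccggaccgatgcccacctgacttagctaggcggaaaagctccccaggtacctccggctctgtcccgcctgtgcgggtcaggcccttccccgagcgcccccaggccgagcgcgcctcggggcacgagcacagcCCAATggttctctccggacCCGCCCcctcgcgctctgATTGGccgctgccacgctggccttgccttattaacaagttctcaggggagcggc
In the GENCODE annotation no exon lay in the windows of Meox2 and Msx1, and an exon of the noncoding gene B130024G19Rik, on the opposite strand, lay in that of Nr2f2. The Meox2 window also lay inside the noncoding gene Gm48617, which runs on the same strand as Meox2. Meox2 had 1 match to the TATA box, on the opposite strand, that began 29 bases before the start, and 1 to the GC box. Nr2f2 had 2 matches to the CCAAT box, and Msx1 had 2 to the CCAAT box and 1 to the GC box. No motif was common to all 3 windows, and none of them held the homeodomain core or the half-site. Of 32851 windows of the same length, 12.4% held the TATA box letters, 33.8% those of the CCAAT box, 32.7% those of the GC box, 4.84% the homeodomain core and 14% the half-site.

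Meox2 had the highest ratio over the other precursors among the members, with intervals that overlapped those of Msx1, and the order of these 2 genes turned in some settings, such as thinned brown cells (2.37 for Meox2 and 3.32 for Msx1). In the white library its level was 95.5 CPM (95% interval 88.5 to 103) in wFAPLs, 25.3 CPM in wAPC 2, 13.4 CPM in wAPC 1, 12.3 CPM in wAPC 3, 11.3 CPM in wCAPs and 7.66 CPM in wAPC 4. The intervals of wFAPLs and wAPC 2 stood apart from each other and from all the rest, and the last 4 clusters overlapped with their neighbours in this order. In the brown library its level was 97.9 CPM (91.0 to 105) in bFAPLs, 74.3 CPM (65.2 to 84.4) in bAPC 5, 16.9 CPM in bCAPs, 15.6 CPM in bAPC 1, 12.3 CPM in bAPC 3, 10.7 CPM in bAPC 2 and 9.01 CPM in bAPC 4. Brown cells thus had another Meox2-high cluster, bAPC 5, whose interval lay below that of bFAPLs and above those of all the rest. It had 10.2 CPM of Serpinb1a and 12.4 CPM of Pparg, against 94.5 and 17.0 CPM in bFAPLs. Of the other FAPL markers, Cxcl14, a chemokine, stood at 21.7 CPM in bAPC 5, 32.8 CPM in bFAPLs and at most 8.59 CPM in the remaining brown clusters, whereas Cryab (84.2 CPM) and Col4a1 (152 CPM), a basement membrane collagen, were within or below their range. The log2 ratio of FAPLs over the other precursors was 2.75 (2.59 to 2.90) in white and 2.48 (2.34 to 2.63) in brown, that is 6.72-fold and 5.60-fold. FAPLs were the source of 49.0% of the Meox2 UMIs of white precursors and 45.6% of those of brown precursors, while they held 12.5% and 13.0% of all UMIs. The noncoding gene Gm48617, on the same strand, could take Meox2 reads. It had 26 UMIs in wFAPLs and 24 in bFAPLs against 685 and 738 UMIs of Meox2. Meox1, Nr2f1, Nr2f2 and Shox2 overlap a gene on the opposite strand.

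Meox2 was found in most FAPLs and in few UMIs per cell. At full depth 81.2% of wFAPLs and 82.4% of bFAPLs had a UMI, with a median of 2 and a maximum of 14 UMIs per cell in both. With every cell thinned to 10000 UMIs, which left out no labelled cell, the shares were 54.3% (48.0 to 60.5) of wFAPLs, 56.3% (50.2 to 62.2) of bFAPLs and 49.6% (40.1 to 59.0) of bAPC 5. The other clusters of 50 cells or more lay between 7.75% and 19.6%. The 15 differentiating wFAPLs had 26.7% (7.79 to 55.1) and a Meox2 level of 25.2 CPM, below the 95.5 CPM of wFAPLs. Cells that should lack the gene gave the background at full depth: 0 of 20 white and 0 of 22 brown glial cells had a UMI, which allows up to 15% and 13.6%, and 1 of 14 white and 0 of 27 brown myeloid cells. None of these glial and myeloid cells had a UMI once thinned to 10000 UMIs. Their median depths were 22607 and 17174.5 UMIs for glial cells and 25124.5 and 29269 UMIs for myeloid cells, against 26730.5 in wFAPLs and 25194 in bFAPLs.

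**Figure D1:**
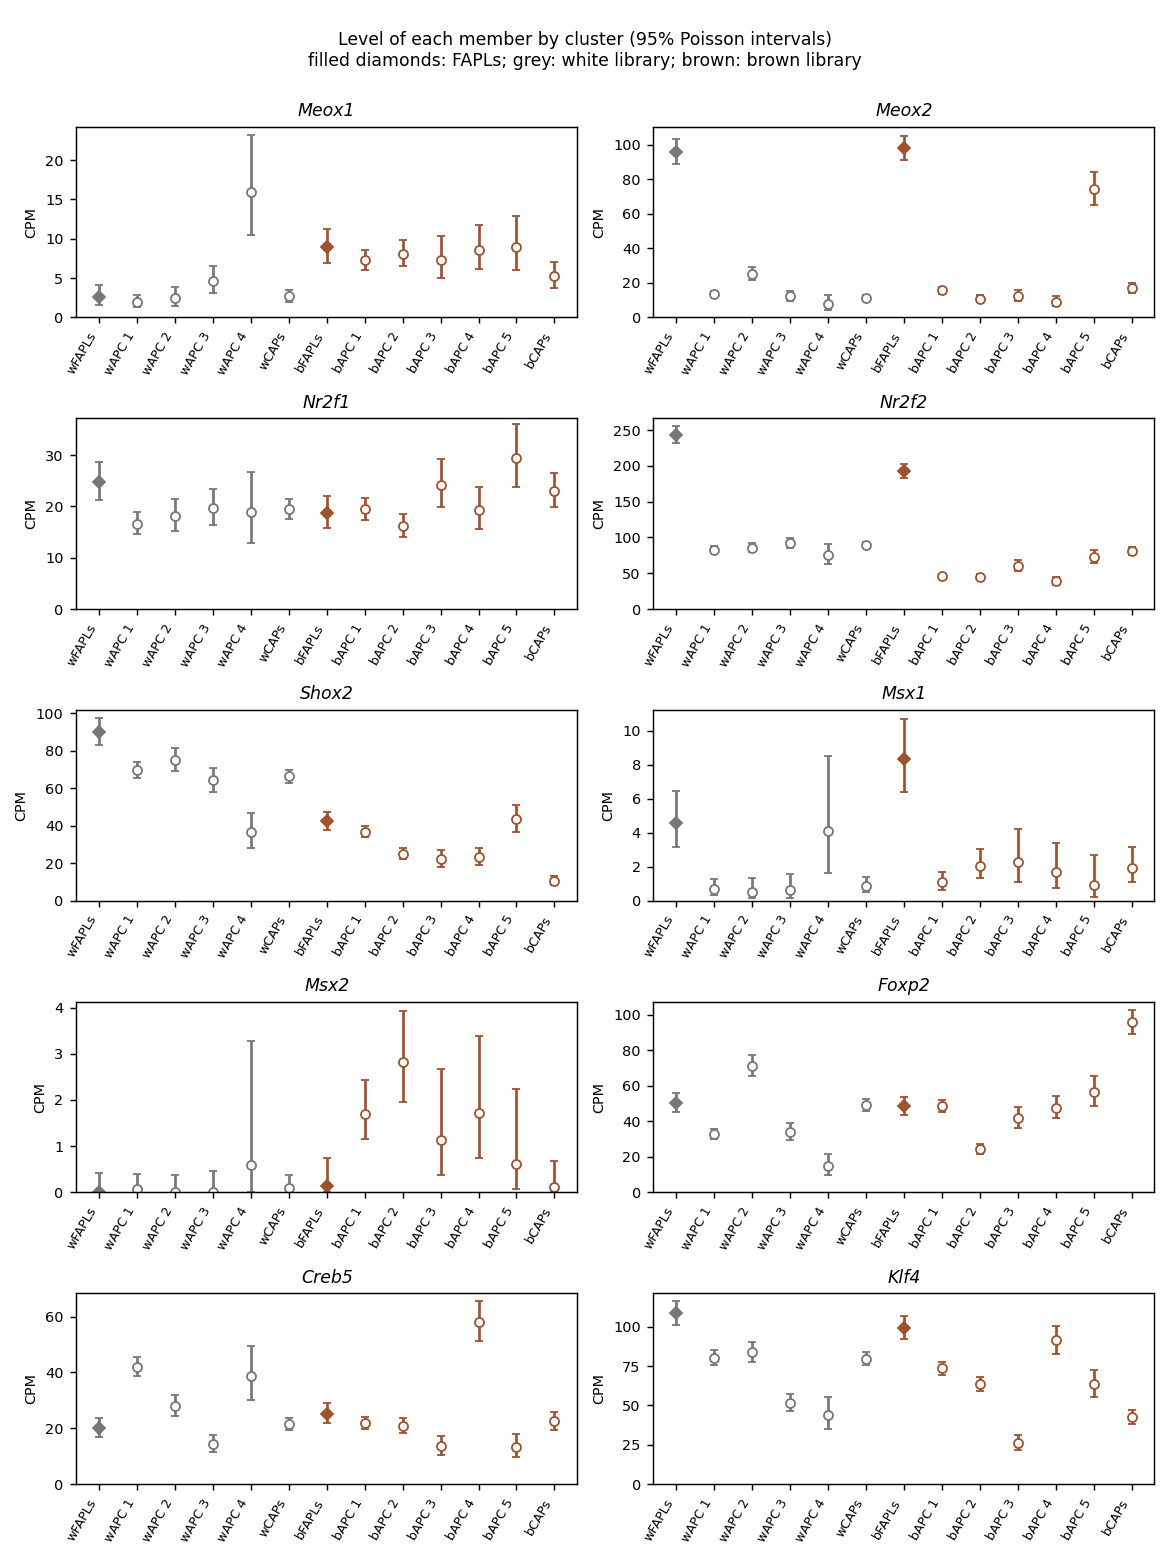
Level of each of the 10 members in CPM (y axis, its own scale in each panel) in the 6 white and 7 brown clusters with 50 or more labelled cells (x axis); bars are 95% Poisson intervals, filled diamonds are FAPLs. Meox2 is high in wFAPLs (95.5), bFAPLs (97.9) and bAPC 5 (74.3), Nr2f2 and Msx1 are highest in FAPLs of both depots, and Creb5, Foxp2 and Msx2 peak elsewhere.

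Nr2f2 was present throughout the precursors and higher in FAPLs. White levels were 244 CPM (232 to 255) in wFAPLs and 76.0 to 92.2 CPM in the other 5 clusters, whose intervals overlapped from 1 neighbour to the next. Brown levels were 193 CPM (183 to 203) in bFAPLs, 80.9 CPM in bCAPs, 72.8 CPM in bAPC 5, 60.3 CPM in bAPC 3, 45.9 CPM in bAPC 1, 45.4 CPM in bAPC 2 and 39.1 CPM in bAPC 4. The log2 ratio of FAPLs over the other precursors was 1.42 (1.34 to 1.50) in white and 1.84 (1.75 to 1.93) in brown, and against bCAPs alone it was 1.25 (1.12 to 1.39). A UMI of Nr2f2 was found in 84.0% of wFAPLs and 78.5% of bFAPLs at 10000 UMIs per cell, with a median at full depth of 5 and 4 UMIs per cell and a maximum of 42 and 25, and in 45.2% to 59.6% of the other white and 28.2% to 50.7% of the other brown clusters. Nr2f2 was not limited to these clusters. In the white library glial cells had 266 CPM (222 to 317), in the brown library 170 CPM (134 to 213), and the 15 differentiating wFAPLs 533 CPM (469 to 602), whereas myeloid cells had 7.74 CPM from 3 UMIs and 5.21 CPM from 4 UMIs.

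Its paralog Nr2f1 (chromosome 13, 78188971 to 78198873) had another profile. White levels ran only from 16.6 to 24.7 CPM and brown levels from 16.1 to 29.4 CPM, with every neighbour in the order overlapping. wFAPLs were at the top of the white order with 24.7 CPM (21.2 to 28.6), and bFAPLs were sixth of 7 in the brown order with 18.7 CPM (15.7 to 22.1). The log2 ratio was 0.40 (0.16 to 0.63) in white and -0.12 (-0.38 to 0.14) in brown. Its highest levels were in glial cells, with 163 CPM (128 to 203) from 20 white cells and 141 CPM (109 to 181) from 22 brown cells. The related receptor gene Nr2f6 had log2 ratios of 0.14 (-0.01 to 0.29) and 0.17 (0.04 to 0.31).

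Msx1 was rare and concentrated in FAPLs, while Msx2 (chromosome 13, 53466881 to 53472780) was nearly absent from them. Msx1 had 33 UMIs in wFAPLs (4.60 CPM, 3.17 to 6.46) and 63 UMIs in bFAPLs (8.36 CPM, 6.42 to 10.7). The small cluster wAPC 4 stood beside wFAPLs with 4.12 CPM (1.66 to 8.50) from 7 UMIs, and the other clusters lay between 0.515 and 0.877 CPM in white and between 0.929 and 2.28 CPM in brown. The log2 ratio was 2.46 (1.76 to 3.15) in white and 2.37 (1.88 to 2.87) in brown. At full depth 10.5% of wFAPLs and 17.6% of bFAPLs had a UMI of Msx1, and no glial or myeloid cell had one. The 15 differentiating wFAPLs had none either, which allows up to 6.29 CPM. Msx2 had 0 UMIs in the 256 wFAPLs, which allows up to 0.418 CPM, and 4 UMIs in all other labelled white precursors, too few for a ratio. In the brown library it had 1 UMI in bFAPLs and 80 in the other precursors, a log2 ratio of -3.59 (-8.91 to -1.07), and 64 of those 80 lay in bAPC 1 and bAPC 2. The related gene Msx3 had no UMI in labelled precursors.

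Shox2 (chromosome 3, 66971723 to 66981771) was a white-biased gene that separated the clusters more in brown than in white cells. White levels were 90.1 CPM (83.3 to 97.3) in wFAPLs, 75.0 CPM in wAPC 2, 69.7 CPM in wAPC 1, 66.3 CPM in wCAPs, 64.3 CPM in wAPC 3 and 36.5 CPM in wAPC 4. Brown levels were 43.4 CPM (36.5 to 51.2) in bAPC 5, 42.3 CPM (37.8 to 47.2) in bFAPLs, 36.7 CPM in bAPC 1, 25.1 CPM in bAPC 2, 23.4 CPM in bAPC 4, 22.1 CPM in bAPC 3 and 10.5 CPM (8.39 to 12.9) in bCAPs. The intervals of bAPC 5 and bFAPLs overlapped, and bCAPs lay below every other cluster. The log2 ratio of FAPLs over the other precursors was 0.41 (0.29 to 0.53) in white and 0.62 (0.44 to 0.80) in brown, but over CAPs alone it was 0.44 (0.30 to 0.58) in white and 2.01 (1.67 to 2.37) in brown. Glial cells had 1 UMI in the white and 2 UMIs in the brown library, and myeloid cells had none.

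Klf4 (chromosome 4, 55527137 to 55532475) led in FAPLs by a smaller margin. It was highest in wFAPLs with 109 CPM (101 to 117), and the other white clusters ran from 83.9 CPM in wAPC 2 to 44.2 CPM in wAPC 4. In the brown library bFAPLs with 99.4 CPM (92.4 to 107) and bAPC 4 with 91.4 CPM (83.0 to 101) overlapped, and bCAPs (42.5 CPM) and bAPC 3 (26.0 CPM) were lowest. The log2 ratio was 0.53 (0.42 to 0.64) in white and 0.66 (0.54 to 0.77) in brown. The lowest brown cluster, bAPC 3, was the one with the most cells scored as G2/M, 52.0%, and the corresponding white cluster wAPC 3 had 48.5%. The part of the cell cycle in these levels was not tested, and among cells scored as G1 the log2 ratio was 0.38 (0.23 to 0.52) in white and 0.60 (0.46 to 0.74) in brown. Klf4 was also found in glial and myeloid cells, at 19.6 to 33.5 CPM. The 15 differentiating wFAPLs had 10.5 CPM (3.40 to 24.5) from 5 UMIs.

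Creb5 and Foxp2, both on chromosome 6 (53287226 to 53700364 and 14901349 to 15441977), peaked outside FAPLs. Creb5 was highest in wAPC 1 with 42.0 CPM (38.7 to 45.5) and wAPC 4 with 38.9 CPM (30.1 to 49.5) in white, where wFAPLs had 20.1 CPM (16.9 to 23.6), and in bAPC 4 with 58.2 CPM (51.4 to 65.5) in brown, where bFAPLs had 25.2 CPM (21.7 to 29.1). Its log2 ratio was -0.55 (-0.81 to -0.31) in wFAPLs and 0.08 (-0.14 to 0.31) in bFAPLs. Over wCAPs alone it was -0.10 (-0.38 to 0.18). The 15 differentiating wFAPLs had 178 CPM (142 to 220) of Creb5, and glial cells 367 CPM (315 to 426) in the white library and 250 CPM (206 to 300) in the brown library. Foxp2 was highest in wAPC 2 with 71.2 CPM (65.4 to 77.4) in white and in bCAPs with 95.6 CPM (89.0 to 103) in brown. wFAPLs and wCAPs had 50.3 and 49.0 CPM, whose intervals overlapped, whereas bFAPLs had 48.3 CPM and were 1.98-fold below bCAPs (log2 ratio -0.98, -1.17 to -0.80). Against all other precursors the ratio was 0.18 (0.01 to 0.34) in white and -0.06 (-0.22 to 0.10) in brown. Both are long genes, of 541 kb for Foxp2 and 413 kb for Creb5, and the counting included introns by default. The part of unspliced RNA in their levels was not tested.

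Meox1 (chromosome 11, 101877510 to 101894354), the paralog of Meox2, did not follow it. White levels were 15.9 CPM (10.5 to 23.1) in the 62 cells of wAPC 4, from 27 UMIs, and 1.95 to 4.61 CPM in the other clusters, with wFAPLs at 2.65 CPM (1.60 to 4.14) from 19 UMIs. Brown levels ran from 5.24 CPM in bCAPs to 8.98 CPM in bAPC 5 with all neighbours overlapping, and bFAPLs had 8.89 CPM (6.89 to 11.3). The log2 ratio was -0.23 (-1.0 to 0.46) in white and 0.28 (-0.12 to 0.65) in brown. At 10000 UMIs per cell 1.17% of wFAPLs and 5.73% of bFAPLs had a UMI of Meox1.

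**Figure D2:**
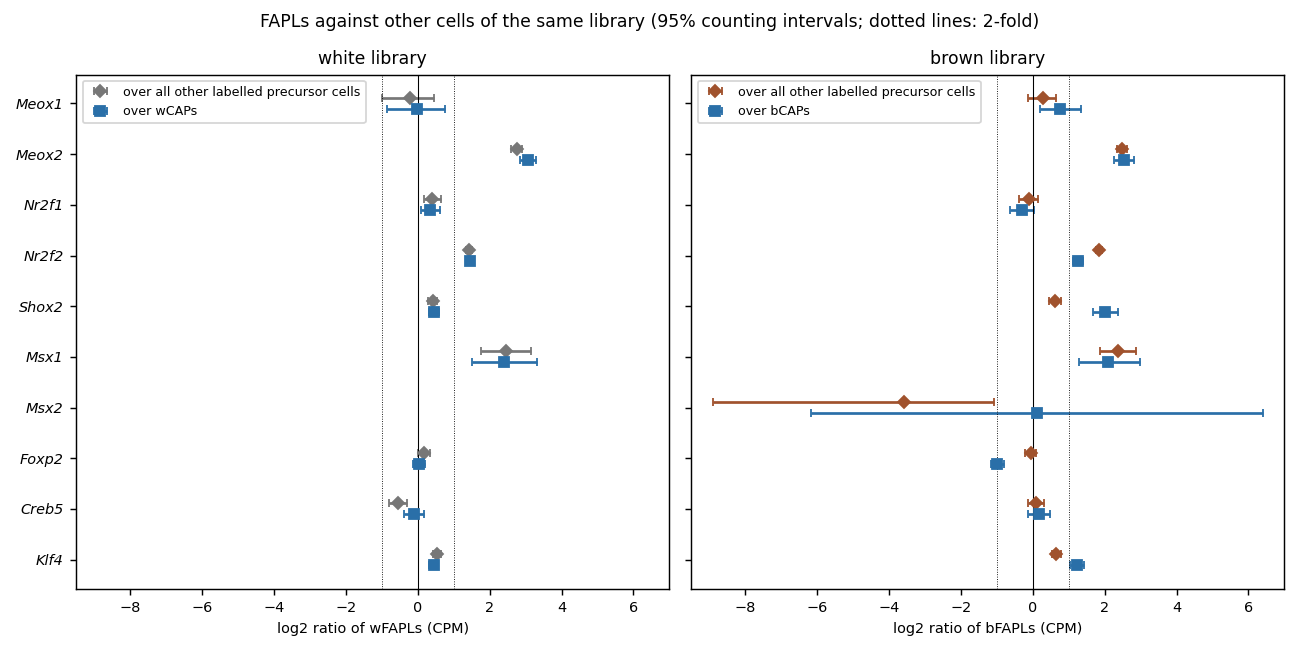
log2 ratio of the level (CPM) in FAPLs over all other labelled precursor cells (diamonds) and over CAPs alone (squares) for each member, white library left and brown library right; bars are 95% conditional binomial intervals and dotted lines mark 2-fold. Meox2 (2.75 and 2.48), Nr2f2 and Msx1 lie beyond 2-fold in both libraries, and in brown Shox2 and Klf4 pass it only against bCAPs; Msx2 has no white ratio.

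**Figure D3:**
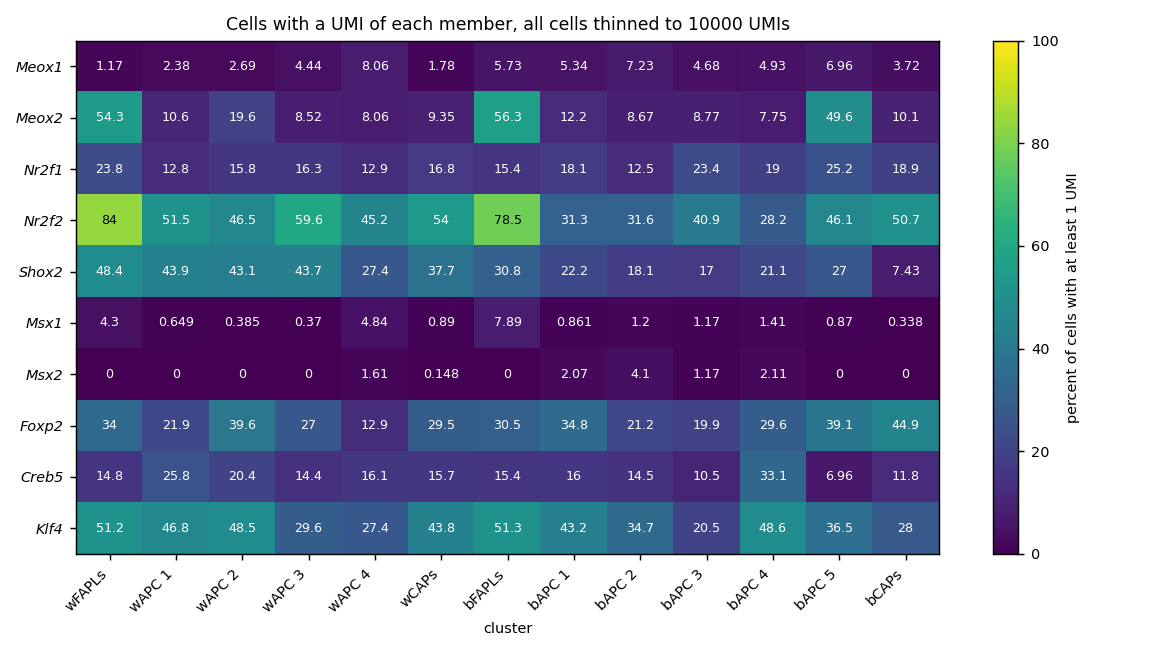
Percent of cells with at least 1 UMI of each member (rows) in each cluster (columns) after every cell was thinned to 10000 UMIs; shares compare clusters within a row. Meox2 stands at 54.3 in wFAPLs, 56.3 in bFAPLs and 49.6 in bAPC 5, and Msx1 does not exceed 7.89 in any cluster.

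Members were also counted per cell. At 10000 UMIs a wFAPL held a UMI of 3.16 members on average and a bFAPL of 2.92, and 71.1% and 62.7% of them held 3 or more. Over the other clusters of 50 cells or more the average ran from 1.65 in wAPC 4 to 2.37 in wAPC 2 and from 1.48 in bAPC 3 to 2.38 in bAPC 5. There 22.6% to 45.8% of white and 17.5% to 47.0% of brown cells held 3 or more. The average sums the members' shares, and no such count was made over other genes. From wAPC 1 to wFAPLs Meox2 (10.6% to 54.3%) and Nr2f2 (51.5% to 84.0%) rose most. Creb5 (25.8% to 14.8%) and Meox1 (2.38% to 1.17%) went the other way. Within FAPLs the share of cells with both genes of a pair was set beside the product of their 2 shares. Meox2 and Nr2f2 shared 47.7% (41.4 to 54.0) of wFAPLs where the product is 45.6%, and 44.8% (38.9 to 50.8) of bFAPLs where it is 44.2%. Nr2f1 and Nr2f2 shared 19.9% where the product is 20.0%, and 12.2% where it is 12.1%. Meox2 and Shox2 shared 29.3% (23.8 to 35.3) where the product is 26.3%, and 18.3% where it is 17.3%. For all 8 pairs in both depots the product lay within the 95% Clopper-Pearson interval of the shared percentage. The shares and the overlap come from the same cells, so this interval is not the spread around the product. It therefore cannot decide whether the genes of a pair go together or apart. Msx1 and Msx2 could not be read because no thinned FAPL had Msx2. Meox1 and Meox2 could not be read in wFAPLs either, because only 3 thinned cells had Meox1.

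Between depots, the interval of the Meox2 ratio in FAPLs included 0, whereas those of Shox2 and Meox1 did not. The log2 ratio of wFAPLs over bFAPLs was -0.04 (-0.19 to 0.12) for Meox2, 1.09 (0.89 to 1.29) for Shox2 and -1.75 (-2.56 to -0.99) for Meox1. Shox2 was the 1 member at least 2-fold higher in wFAPLs, where 2.38% of 12623 genes were, and Meox1 the 1 member at least 2-fold higher in bFAPLs, where 1.77% were. Without the cells high in mural genes described below, the Shox2 ratio was 0.93 (0.65 to 1.21), under 2-fold, and among cells scored as G1 it was 1.34 (1.09 to 1.61). Msx1 was lower in wFAPLs with a log2 ratio of -0.86 (-1.51 to -0.23). Nr2f2 stood at 0.33 (0.23 to 0.44), or 0.17 (0.03 to 0.31) without the cells high in mural genes, Nr2f1 at 0.40 (0.07 to 0.73) and Creb5 at -0.33 (-0.65 to -0.01), whereas the intervals of Foxp2 (0.06) and Klf4 (0.13) included 0. Without the cells high in mural genes the intervals of 3 more members included 0, at 0.16 (-0.27 to 0.58) for Nr2f1, -0.23 (-0.70 to 0.25) for Creb5 and -0.58 (-1.49 to 0.29) for Msx1. These intervals hold counting error of 1 library per depot and no spread between animals.

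The same depot ratios in the other precursors place the FAPL values. With the APC clusters pooled, Shox2 was higher in white cells in each group, by 2.13-fold in FAPLs, 6.33-fold in CAPs and 2.20-fold in APCs. Meox1 and Msx1 were higher in brown cells in each group, Meox1 by 3.35-fold, 1.95-fold and 2.26-fold and Msx1 by 1.82-fold, 2.22-fold and 1.88-fold. The Msx1 value in CAPs came from 17 and 16 UMIs (log2 ratio -1.15, -2.23 to -0.07). The small cluster wAPC 4 went against the pooled values for Meox1 and Msx1. It had 15.9 CPM of Meox1, above every brown cluster (at most 8.98 CPM). Its Msx1 level was 4.12 CPM (1.66 to 8.50), above all brown clusters but bFAPLs (at most 2.28 CPM). Its Shox2 level was 36.5 CPM (28.0 to 46.8), above the 30.9 CPM of the pooled brown APC clusters, a value within its interval. The interval also overlapped that of bAPC 5, at 43.4 CPM (36.5 to 51.2). Nr2f2 differed least in CAPs, with a log2 ratio of 0.14 (0.01 to 0.27), and most in APCs with 0.81 (0.73 to 0.89). Foxp2 was 1.95-fold higher in bCAPs than in wCAPs while FAPLs and APCs did not differ beyond their intervals, and Klf4 was 1.88-fold higher in wCAPs than in bCAPs. Msx2 was a brown APC gene, with 79 UMIs in the brown and 2 UMIs in the white APC clusters, a log2 ratio of -4.83 (-7.90 to -2.93). For comparison, the positional gene Hoxc10 stood at 108 CPM in wFAPLs and at 0 in bFAPLs, and Zic1 at 0 in wFAPLs and 21.2 CPM in bFAPLs. Hoxc9 parted the depots less cleanly, with 51.6 CPM in wFAPLs, 3.18 CPM from 24 UMIs in bFAPLs and 13.2 CPM in bAPC 3.

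**Figure D4:**
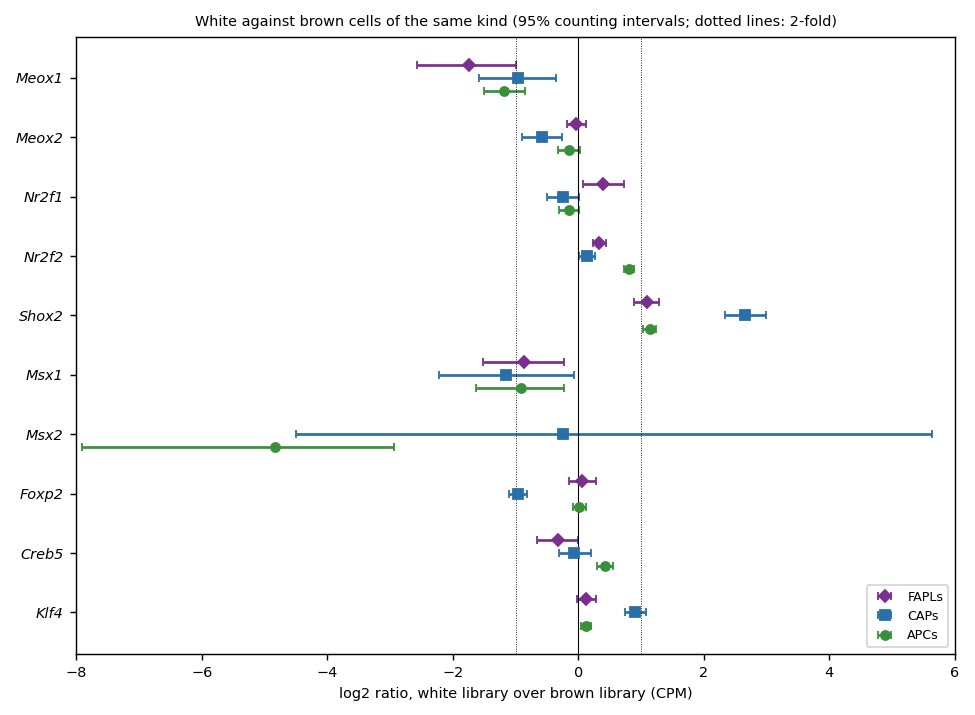
log2 ratio of the level (CPM) in the white over the brown library for each member in FAPLs (diamonds), CAPs (squares) and pooled APC clusters (circles); bars are 95% conditional binomial intervals and dotted lines mark 2-fold. Shox2 lies right of 0 in all 3 kinds of cell (2.66 in CAPs), Meox1 and Msx1 lie left of 0 in all 3, and Msx2 has no FAPL ratio.

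FAPLs were not uniform for these genes. The mural list splits each FAPL cluster by a per-cell score and so marks a range of cells, not a type. Of the 200 white and 200 brown precursors with the largest share of mural UMIs, 105 were wFAPLs and 108 were bFAPLs, and 23 and 18 FAPLs lay within 10% of the limit. Nr2f2 was 314 CPM (294 to 335) in the 105 mural-high wFAPLs and 194 CPM (181 to 208) in the other 151, and 226 CPM (209 to 243) against 172 CPM (160 to 185) in bFAPLs. Shox2 was 116 CPM (104 to 129) against 71.8 CPM (64.0 to 80.4) in wFAPLs and 49.4 CPM (41.8 to 58.2) against 37.7 CPM (32.3 to 43.8) in bFAPLs. Creb5 was 34.5 CPM (28.2 to 41.9) against 19.2 CPM (15.4 to 23.6) in bFAPLs, and Klf4 went the other way there, with 75.5 CPM (65.9 to 86.1) against 115 CPM (105 to 125). The intervals of Meox2 overlapped, with 93.0 and 97.3 CPM in wFAPLs and 96.2 and 99.0 CPM in bFAPLs. Without the mural-high cells the white Shox2 ratio was 0.10 (-0.08 to 0.27), whereas that of Nr2f2 was 1.19 (1.08 to 1.30) in white and 1.67 (1.55 to 1.78) in brown. The cycle phase moved with Nr2f2 too, which stood at 311 CPM (284 to 341) in the 47 wFAPLs scored as G2/M and 217 CPM (203 to 231) in the 171 scored as G1, and at 260 CPM (235 to 287) against 179 CPM (167 to 192) in 49 and 188 bFAPLs. For Creb5 and Klf4 the order of the phases differed between the 2 libraries, in few cells and with intervals that leave out the spread between cells. Creb5 in bFAPLs stood at 9.17 CPM (5.01 to 15.4) in G2/M and 28.3 CPM (23.7 to 33.6) in G1, whereas in wFAPLs G2/M was the highest phase with 25.5 CPM (18.1 to 35.0) against 19.2 CPM (15.4 to 23.7) in G1, and these intervals overlapped. Klf4 was highest in S in the 38 such wFAPLs, with 160 CPM (138 to 184) against 100.5 CPM (91.4 to 110.2) in G1, and lowest in S in the 42 such bFAPLs, with 79.7 CPM (65.2 to 96.5) against 106 CPM (97.0 to 116). Meox2 was lowest in S in both, with 73.2 CPM (58.7 to 90.2) against 101 CPM (92.3 to 111) in G1 of wFAPLs and 73.6 CPM (59.7 to 89.8) against 98.4 CPM (89.7 to 108) in G1 of bFAPLs, where the intervals just overlapped.

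**Figure D5:**
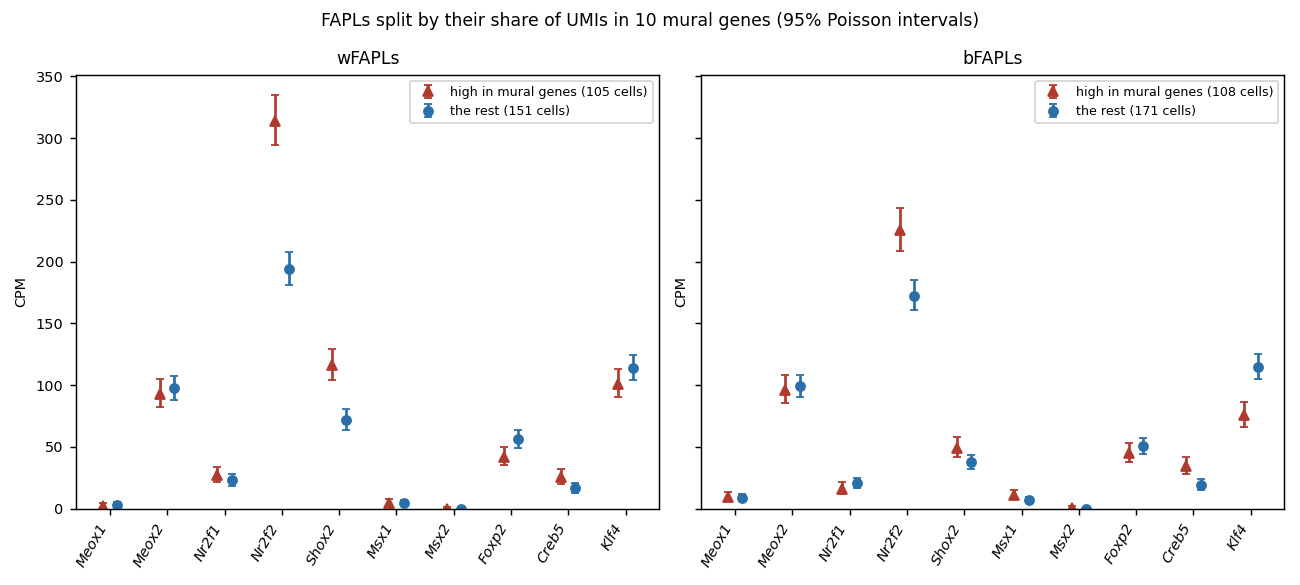
Level (CPM) of each member in FAPLs with a large share of UMIs in 10 mural genes (triangles) and in the other FAPLs (circles), wFAPLs left and bFAPLs right; bars are 95% Poisson intervals, and levels compare the 2 sets within a gene. Nr2f2 and Shox2 are higher in the mural-high wFAPLs (314 against 194 and 116 against 71.8), and Meox2 overlaps in both depots.

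The ratios of the leading members were also taken in the cells beyond the shortened copy of the labels. Cells with no label at hand were given one by a vote of their 15 nearest labelled neighbours, with the 10 members left out of the genes compared. Among 215 wFAPLs and 471 bFAPLs found in this way, set against 2118 and 3493 other precursors, the log2 ratio was 2.38 (2.23 to 2.54) and 2.36 (2.25 to 2.47) for Meox2, 1.47 (1.39 to 1.56) and 1.86 (1.79 to 1.93) for Nr2f2 and 2.53 (1.74 to 3.28) and 1.81 (1.42 to 2.19) for Msx1. These are other cells of the same 2 libraries, not a replicate. The study's cluster profiles, by which the members were chosen, covered such cells too, so these ratios are also a description. With the members among the genes compared, the vote returned 78.1% of labelled wFAPLs and 82.4% of labelled bFAPLs to their cluster.

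The genes whose profile over the 13 clusters was most like that of a member were found by Pearson correlation of log2(CPM + 1) among 9911 genes. The clusters come from only 2 libraries, so r describes these points. Meox2 was most like Prss35, a serine protease family gene (r = 0.939), which stood at 12.0 CPM in wFAPLs, 10.2 CPM in bFAPLs and 5.27 CPM in bAPC 5 and at most 1.34 CPM in the other clusters, and like the interferon-induced Bst2 (r = 0.921), with 54.3, 52.3 and 55.1 CPM in the same 3. Bst2 was not confined to them and ran from 21.8 CPM in wAPC 4 to 41.8 CPM in bCAPs over the other clusters. Nr2f2 was most like Dbndd2 (r = 0.931) and Grik5 (r = 0.927), Msx1 like the nucleoside transporter Slc29a1 (r = 0.917) and the pericyte marker Rgs5 (r = 0.911), and Shox2 like the lactate transporter Slc16a3 and Eps8 (both r = 0.926). Foxp2 was most like Armcx4 (r = 0.916) and Sorcs1 (r = 0.915), Creb5 like Lrrfip1 (r = 0.908) and Apol8 (r = 0.893), and Klf4 like Stx4a (r = 0.869) and Sun1 (r = 0.850). For Meox1 they were Cd2bp2 (r = 0.907) and Prr5 (r = 0.901), for Nr2f1 the growth factor binding protein Igfbp5 (r = 0.814) and Foxj2 (r = 0.798), and for Msx2 Bola2 (r = 0.893) and the ribosomal gene Rpl30 (r = 0.878). Some of these genes varied little, as Stx4a from 51.8 to 74.2 CPM, Foxj2 from 8.28 to 13.1 CPM and Rpl30 from 2155 to 2879 CPM. The r that the best of 9911 unrelated genes would reach was not computed.

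Among relatives of the members, none of 11 Klf genes, 7 genes around Creb5 or 2 countable Foxp genes was 2-fold higher or lower in FAPLs of either depot, with median log2 ratios of 0.07, 0.02 and 0.28 in white and 0.17, 0.10 and 0.36 in brown. Klf10 came nearest in white, at -0.83 (-1.32 to -0.38), and had -0.51 (-0.93 to -0.12) in brown. On the higher side Foxp1, a forkhead repressor, was nearest in both depots, at 0.64 (0.60 to 0.68) and 0.59 (0.55 to 0.64). Among 35 factors that pattern mesenchyme, 26 had enough UMIs in white. Of these, 3 were at least 2-fold higher and 1 lower, where 3.81% and 5.48% of all white genes were. In brown 30 had enough UMIs, of which 5 were higher and 7 lower, where 3.38% and 5.9% of all brown genes were. Of the brown ones, Pax3, Hand2 and Lhx9 among the lower, each from 1 UMI in bFAPLs, and Foxf1 among the higher had intervals that included 0. Tbx18, Osr1 and Foxd1 were higher in both depots. Tbx18, a T-box factor of mural and epicardial cells, had log2 ratios of 1.57 (1.32 to 1.81) and 1.04 (0.80 to 1.27). Osr1, a zinc finger gene known from muscle fibro-adipogenic progenitors, had 1.18 (1.05 to 1.30) and 1.29 (1.13 to 1.44). Foxd1, a stromal forkhead gene, had 4.89 (3.81 to 6.12), from 38 and 9 UMIs, and 3.07 (2.39 to 3.75). Scx, the tendon factor, was past 2-fold lower in both, at -1.87 (-2.79 to -1.07) in brown and -1.15 (-3.07 to 0.28) in white, where it had 4 UMIs in wFAPLs and the interval included 0.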

How the data were processed

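The authors deposited UMI counts for each gene in each called cell, made with Cell Ranger 7.0.1 and mm10 per the labels. Nothing was normalized beforehand. Cluster labels came from the study's source data in a copy shortened to the first rows, which held 1999 precursor cells per depot. All lay within the study's limits on cells (3900 to 7700 genes, 1.7 to 5% mitochondrial UMIs, 6000 to 60000 UMIs). No doublet caller was run beyond these upper limits.

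The members and gene lists were chosen with earlier results of these data known. Counts were summed per cluster and divided by its total (CPM). With 1 library per depot no test was made. Levels have Poisson, shares Clopper-Pearson and ratios conditional binomial intervals, all at 95% and for counting error alone, and a count of 0 allows 3 counts. Ratios used genes with 20 or more UMIs. Thinning drew each cell down to 10000 UMIs. The vote used 20 principal components of 2000 variable genes and 15 neighbours, and cycle phases the Seurat gene lists. Named genes were the members, the 2 genes most like each at 10 CPM or more, relatives past 2-fold the same way in both depots, and 8 fixed markers. Nr2f6, Msx3, Foxp1, Klf10, Pax3, Hand2, Lhx9, Foxf1, Gm48617, Cxcl14, Lpl, Cebpa, S100b, Sox10, Actg2, Myh11, Kcnj8, Abcc9 and Higd1b were named after their values were seen. The same holds for Col4a2, Cspg4, Notch3 and Mcam. Python 3.11.15, numpy 2.4.6, scipy 1.17.1, scikit-learn 1.9.0, scanpy 1.11.5 and Seurat 5.3.0 were used. The intervals were tested on counts simulated under the Poisson model that they assume. Their coverage where UMIs cluster in few cells was not tested.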

Additional observations from a re-analysis of the deposited data

How the results depend on the processing

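Meox2, Nr2f2 and Msx1 were the members at least 2-fold higher in FAPLs, 3 in each depot. The count remained 3 in both depots with labels carried over, thinned cells, cells weighted alike, G1 cells only, cells high in mural genes left out, gene minimums of 10 or 50 UMIs and, an alternative added after seeing the data, cells with no label at hand. Without the differentiating wFAPLs, also added later, the white count was 3. Against bCAPs alone the brown count was 5, with Shox2 (2.01) and Klf4 (1.22) added. The share of all genes past 2-fold against bCAPs was not computed, so this count has no background to be read against. In the same comparison the log2 ratio of Msx2 in bFAPLs turned from -3.59 to 0.12, from 1 UMI in each cluster. Of 193 recomputed log2 ratios of members, 169 stayed within the main 95% interval, 23 moved outside it and 1 reversed. Without the cells high in mural genes Shox2 stood at 0.93 in wFAPLs over bFAPLs, under 2-fold, and at 0.10 in wFAPLs over the other white precursors. Among G1 cells Shox2 stood at 1.34 in wFAPLs over bFAPLs and Klf4 at 0.38 in wFAPLs over the other white precursors. Genes of under 1 CPM, such as Msx2 in white cells, could not be ranked at this depth. No paired analysis was possible because each depot has 1 library and its replicate number only names it.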
